A study of Mus musculus with 2 samples.

Results

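The genes described here encode 10 matricellular and adhesive proteins of the extracellular matrix: Postn, Mgp, Fn1, Tnc, Thbs1, Thbs2, Spp1, Ctgf, Cyr61 and Fbln1. They were measured in the lens of the mouse at postnatal day 1. The members were taken by gene name, and every non-control probe carrying 1 of these names was kept, which gave 18 of 41174 probes and 10 of 27376 gene names. The CKO sample was lens in which Msx2, the gene of a homeodomain transcription factor, had been deleted conditionally with the Le-Cre line. Le-Cre is a transgene under Pax6 regulatory sequence that expresses Cre recombinase in the lens and in other derivatives of the surface ectoderm of the eye. The WT sample was wild-type lens of the same age, and the labels do not say whether it carried Le-Cre. Each genotype had 1 array, the labels give no number of animals behind either RNA, and no p-value can be had. In bulk RNA like this, more cells of a type and more RNA per cell cannot be told apart.

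Matricellular proteins are secreted into the matrix, where they bind collagens, growth factors and cell surface receptors and modulate adhesion more than they build structure. Fibronectin and the fibulins are adhesive components of matrix and basement membranes, and integrins are the main receptors for many of these proteins. In the eye they are known from the vessels, the mesenchyme and the trabecular meshwork around the lens. In lens epithelial cells fibronectin and connective tissue growth factor are widely used as markers of the change to a mesenchymal state under TGF-beta.

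A probe was called measured where the scanner software marked it well above background on both arrays. Levels are intensity units of the processed signal, and differences are log2 CKO minus log2 WT after each array was scaled to its own 75th percentile. The error beside a level or a difference is the scanner software's estimate for a spot, which covers this array and not the spread between animals. Msx2 itself gave 371 ± 15.9 (SD, 10 spots) in WT and 4.62 ± 1.77 in CKO, at least 22.1-fold lower in the knockout. The bound was the dimmest signal that the CKO array marked well above background (16.5). The lens markers were present on both arrays: all 12 genes of a lens fibre list and all 6 of a lens epithelium list were measured.

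Of the 10 genes, Mgp, Postn, Cyr61 and 1 of the probes of Fbln1 had signals at least 2-fold higher in CKO, and Fn1 was seen in CKO only. Ctgf lay just under 2-fold higher. Thbs1 had lower signals in CKO by less than 2-fold, and Tnc, Thbs2 and Spp1 were not well above background on either array. In counts, 8 of the 18 member probes were measured, 1 was well above background in CKO only, 0 in WT only and 9 on neither array. Over all probes those shares were 51.0%, 4.11%, 3.20% and 41.7%. Among the 8 measured member probes 4 exceeded 2-fold upward and 0 downward. Of all 21010 measured probes, 3.85% did so upward and 3.20% downward. A bound of at least 2-fold was reached by the member seen in CKO only, as by 30.9% of all such probes. It was reached by 20.4% of all probes seen in WT only, where there was no member. Their median difference was 1.01, against -0.05 for all measured probes. With each array scaled to its median, 39.5% of all probes past 2-fold were higher in place of 54.6%, the median of all probes moved by -0.11, and the member counts were 3 and 0.

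**Figure D1:**
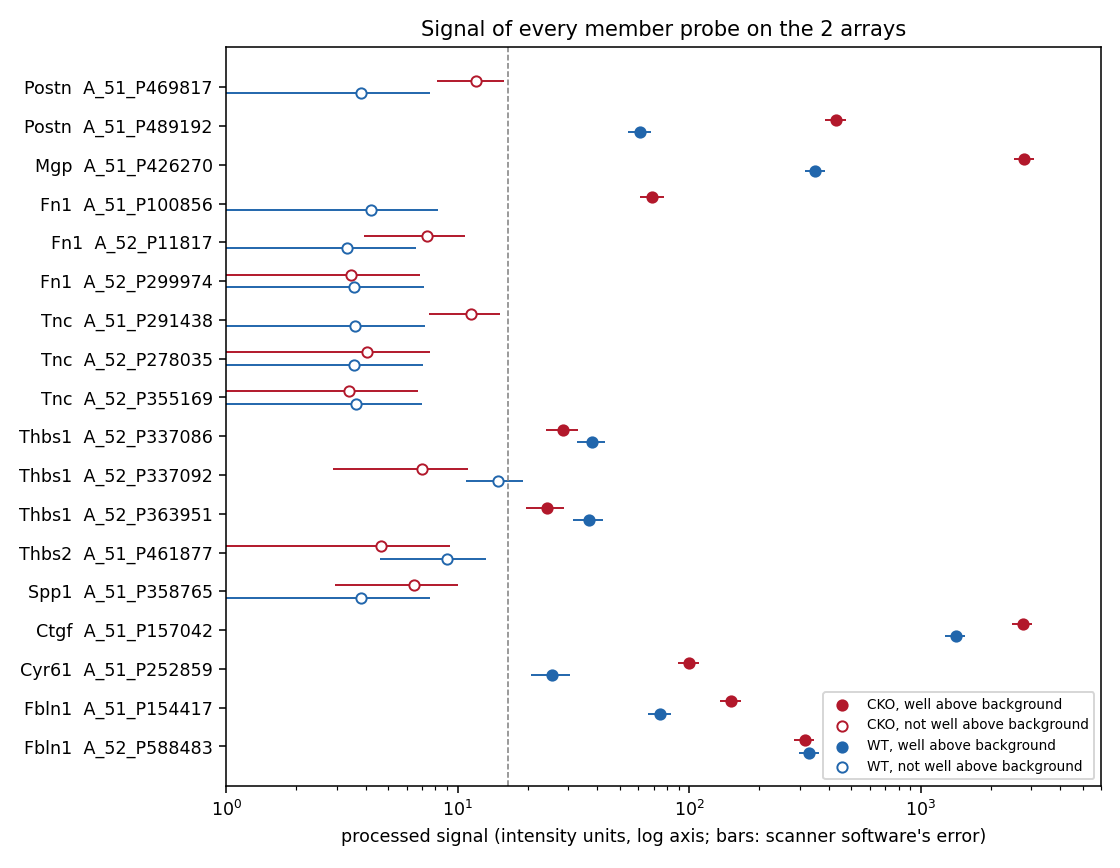
Processed signal of the 18 member probes on the CKO array (red) and the WT array (blue) on a log axis, with bars for the scanner software's error, drawn down to 1 where the error reaches the signal. Filled points were well above background, and the dashed line is the dimmest such signal on the CKO array (16.5); Postn, Mgp, Fn1 and Cyr61 each have 1 probe whose points lie far apart, while those of Tnc, Thbs2 and Spp1 lie left of the line.

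Mgp encodes matrix Gla protein, a small vitamin K-dependent protein that binds calcium mineral and BMPs and restrains calcification of soft tissue. Its single probe, A_51_P426270 placed by the file at 136821125 to 136821184 of chromosome 6 (mm9), gave 2791 ± 279 intensity units in CKO and 349.7 ± 35.1 in WT. The CKO signal lay far above the WT signal, and the intervals of the software's error did not overlap. The difference was 3.02 ± 0.20, an 8.10-fold higher level, and ranked 29 among the 21010 measured probes in that direction. It stayed at least 2.84 under all 8 other ways of processing the signal.

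Postn encodes periostin, a fasciclin-domain protein of collagen-rich connective tissue that binds integrins and collagen. The probe A_51_P489192, on chromosome 3 from 54194483 to 54194542, gave 429.8 ± 43.1 in CKO and 61.2 ± 7.10 in WT. That is a difference of 2.83 ± 0.22 or 7.13-fold, rank 41 among the measured probes in this direction. With normexp background correction it was 2.06. A further Postn probe, A_51_P469817, carries an Ensembl transcript and lies upstream, from 54184952 to 54185011. It gave 11.95 ± 3.80 in CKO and 3.81 ± 3.80 in WT, and neither was well above background, so the 7.13-fold value rests on 1 probe.

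Cyr61 and Ctgf are the founding members of the CCN family, secreted proteins that bind integrins and heparan sulphate, and both are immediate targets of the co-activators YAP and TAZ with TEAD factors. For Cyr61 the probe A_51_P252859 (chromosome 3 from 145310187 to 145310246) gave 99.6 ± 10.8 in CKO and 25.5 ± 4.86 in WT. The WT signal lay not far above 16.6, the dimmest signal marked well above background in WT. The difference was 1.99 ± 0.32, or 3.96-fold. It fell under 2-fold where the background was handled otherwise, to 0.73 with normexp and 0.87 with no background subtraction.

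Ctgf was the brighter case. Its probe A_51_P157042, on chromosome 10 from 24318281 to 24318340, gave 2756 ± 276 in CKO and 1411 ± 141 in WT, again with no overlap of the errors. The difference of 0.99 ± 0.20 (1.98-fold) was just short of the 2-fold mark. It passed the mark in the log2 table that the authors deposited (1.09), after centring by intensity (1.11) and after quantile normalization (1.09). At this brightness repeated spots of a probe gave an SD of 0.10 for the difference of 1 spot, so the excess was larger than the spread within the arrays.

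**Figure D2:**
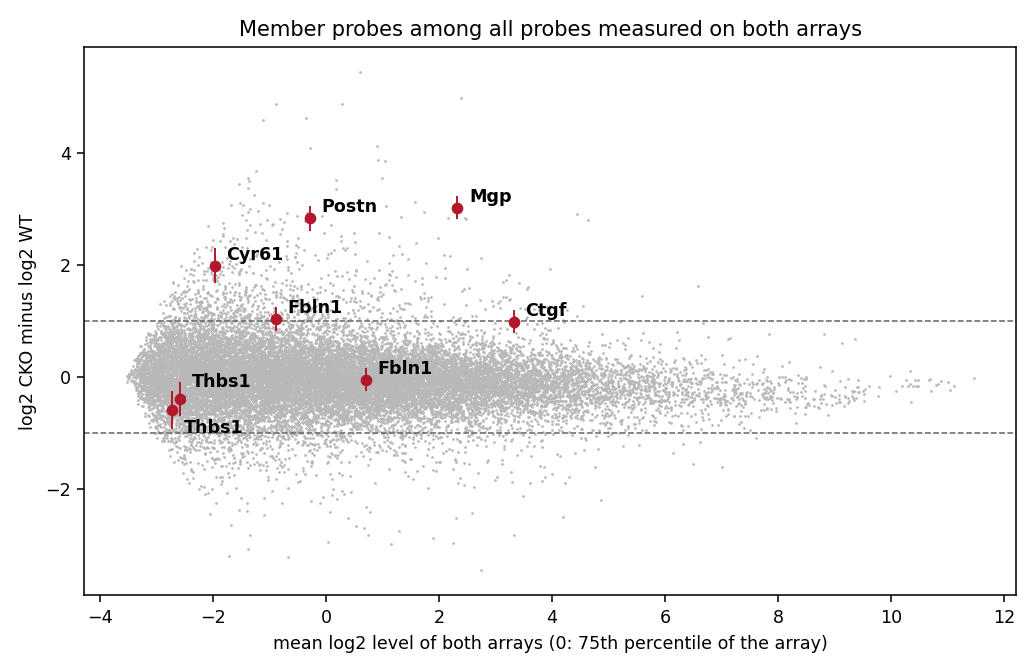
Difference between the arrays (log2 CKO minus log2 WT) against the mean log2 level of both arrays for the 21010 probes measured on both (grey) and the 8 measured member probes (red, bars for the software's error). Dashed lines mark 2-fold; Mgp (3.02) and Postn (2.83) lie well above the upper dashed line, Ctgf (0.99) at that line, and both Thbs1 probes inside the cloud at its dim end.

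Upstream sequence in the RefSeq-based promoter table (GRCm38.p6) was found for 6 of the 10 members, and 2 of the measured genes that were at least 2-fold higher are shown, since Cyr61 is the member best known for TEAD control and Postn had the larger difference. Each is the 250 bases before an annotated start, 5′ to 3′ on the gene's strand. Capitals mark matches on either strand to the motif that TEAD factors bind, GGAATG. They also mark the core promoter element spelled TATAAA.
Cyr61, chr3:145649986-145650235, minus strand: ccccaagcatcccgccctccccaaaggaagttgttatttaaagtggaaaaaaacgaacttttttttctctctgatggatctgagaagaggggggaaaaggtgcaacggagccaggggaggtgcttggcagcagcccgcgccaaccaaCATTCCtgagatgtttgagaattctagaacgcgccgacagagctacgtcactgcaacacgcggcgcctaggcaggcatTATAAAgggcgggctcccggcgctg
Postn, chr3:54360857-54361106, plus strand: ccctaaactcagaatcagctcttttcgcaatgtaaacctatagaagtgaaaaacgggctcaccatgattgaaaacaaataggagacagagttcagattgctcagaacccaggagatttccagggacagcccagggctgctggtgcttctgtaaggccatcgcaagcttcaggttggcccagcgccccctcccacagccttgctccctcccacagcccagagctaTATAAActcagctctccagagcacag
The TEAD core stood 103 bases before the start of Cyr61, on the opposite strand, and was found in 12.6% of 32851 promoters of this length. That promoter element stood 25 bases before the start in Cyr61 and 26 bases before it in Postn, and was found on either strand in 12.4% of promoters. Postn has another annotated start, whose 250 bases hold neither motif. The motifs do not overlap. A match is a description of the sequence only.

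Fibronectin (Fn1), a large adhesive glycoprotein that integrins assemble into fibrils, had 3 probes, and 1 of them was printed as 10 spots on each array. That probe, A_51_P100856, gave 69.2 ± 5.84 intensity units in CKO (SD, n = 10 spots), between 63.9 and 79.8, and every spot of the 10 was marked well above background. In WT it gave 4.21 ± 0.62 (SD) over the 8 spots not marked as outliers, between 3.56 and 5.25, and 0 of them were well above background. For 7 of these 8 the scanner software had put a surrogate value in place of a signal. The spots of the arrays did not overlap, also with both marked spots counted. Fn1 in CKO was therefore higher by at least 4.23-fold. The bound depends on how background is handled: on the log2 scale it was 2.08, and 0.77 with normexp or 0.83 with no background subtraction, both under 2-fold.

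The other Fn1 probes gave no call. A_52_P11817, from 71644127 to 71644186 on chromosome 1, gave 7.32 ± 3.38 in CKO and 3.31 ± 3.29 in WT. A_52_P299974 gave 3.45 ± 3.44 in CKO and 3.56 ± 3.54 in WT. Fn1 is on the minus strand, so the repeated-spot probe lies nearest to the 3′ end of the gene of the 3 and A_52_P299974 nearest to the 5′ end. Both of the probes printed here have an interval in the file longer than their 60 bases (2238 and 759 bases, mm9). Each thus joins sequence of separate exons. The first gave the signal and the second did not, and whether this lies in the transcript or in the probes was not tested.
Fn1 A_51_P100856, chr1:71637422-71639659, minus strand: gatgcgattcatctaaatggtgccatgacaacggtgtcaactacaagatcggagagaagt
Fn1 A_52_P299974, chr1:71673888-71674646, minus strand: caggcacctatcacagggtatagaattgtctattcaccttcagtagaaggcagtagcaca

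**Figure D3:**
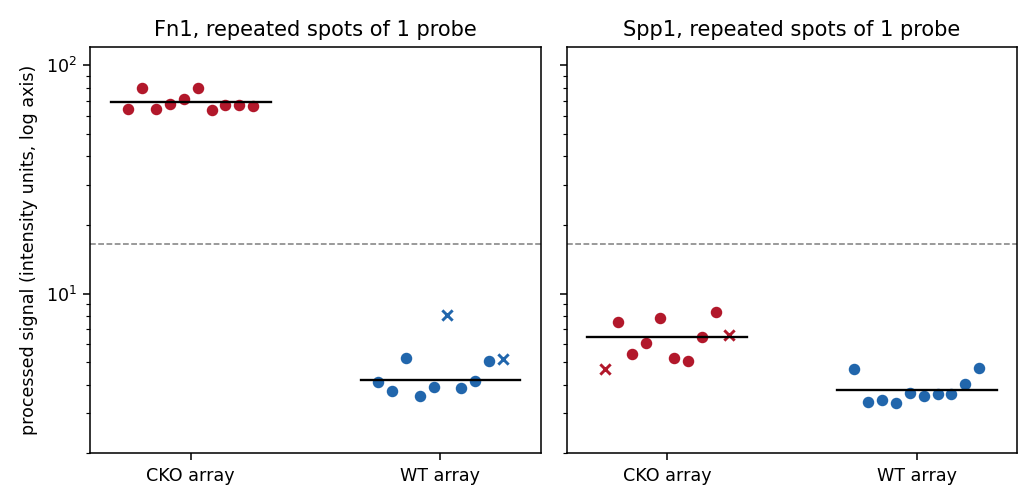
Processed signal (log axis) of each of the 10 repeated spots of the Fn1 probe A_51_P100856 and of the Spp1 probe A_51_P358765 on each array. Crosses are spots marked as outliers, and black lines the mean of the rest. The dashed line is the dimmest signal marked well above background in CKO (16.5). The Fn1 spots lie between 63.9 and 79.8 in CKO and below 16.5 in WT, and all Spp1 spots lie below the line.

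Fbln1 encodes fibulin-1, a calcium-binding protein of basement membranes and elastic fibres that binds fibronectin and laminin. Its probes lie next to each other on chromosome 15 and did not give the same difference. A_51_P154417, from 85115854 to 85115914, gave 150.9 ± 15.5 in CKO and 74.6 ± 8.24 in WT, a difference of 1.04 ± 0.22 or 2.05-fold. A_52_P588483, from 85115998 to 85116057, gave 314.1 ± 31.6 in CKO and 329.5 ± 33.1 in WT, a difference of -0.05 ± 0.21. On the second of these the errors overlapped and the levels could not be told apart. The gap between the probes was 1.09 on the log2 scale. Among 3382 genes with 2 measured probes the median gap was 0.26, and 4.11% had a gap as large as that of Fbln1. The 2-fold excess of A_51_P154417 was also lost with normexp (0.63), with no background subtraction (0.67), with median scaling (0.93) and, narrowly, with quantile normalization (0.998), so no direction for the gene was taken from it.

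The thrombospondins are trimeric or pentameric glycoproteins. Thrombospondin-1 and thrombospondin-2 restrain vessel growth through CD36 and CD47, and thrombospondin-1 also activates latent TGF-beta. Thbs1 had 3 probes on chromosome 2. A_52_P363951, from 117951775 to 117951834, gave 24.2 ± 4.51 in CKO and 36.8 ± 5.34 in WT, a difference of -0.59 ± 0.34. A_52_P337086 gave 28.4 ± 4.51 in CKO and 37.9 ± 5.18 in WT, a difference of -0.39 ± 0.30. Both were lower in CKO, and the intervals of the errors overlapped for the second but not for the first. At this dim level, however, repeated spots of a probe gave an SD of 0.59 for the difference of 1 spot, so neither difference was beyond the spread within the arrays. A_52_P337092 gave 6.96 ± 4.07 in CKO and 15.0 ± 4.12 in WT and was not well above background on either array. The lower direction was kept by both measured probes under all 8 other ways of processing, with values from -0.74 to -0.12. Thbs1 was thus the member whose measured probes all had signs opposite to those of Mgp, Postn, Cyr61 and Ctgf. The measured probe A_52_P337086 is shown beside the dim A_52_P337092 for comparison.
Thbs1 A_52_P337086, chr2:117948330-117948389, plus strand: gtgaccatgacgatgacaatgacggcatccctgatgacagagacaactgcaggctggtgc
Thbs1 A_52_P337092, chr2:117946712-117946892, plus strand: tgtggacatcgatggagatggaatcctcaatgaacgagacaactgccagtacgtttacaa

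Thbs2, thrombospondin-2, had a single probe, A_51_P461877, which joins exons on chromosome 17 (14804526 to 14805789). It gave 4.63 ± 4.62 in CKO, a surrogate value, and 8.94 ± 4.33 in WT. Both lay under the dimmest signal marked well above background, so no fold was given.

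Tnc encodes tenascin-C, a hexameric protein of developing and wounded matrix that weakens adhesion to fibronectin. Its 3 probes on chromosome 4 were all not well above background. A_51_P291438, the nearest to the 3′ end of this minus-strand gene, gave 11.3 ± 3.85 in CKO and 3.598 ± 3.58 in WT. A_52_P278035 gave 4.04 ± 3.51 in CKO and 3.56 ± 3.54 in WT, and A_52_P355169 gave 3.37 ± 3.36 in CKO and 3.63 ± 3.36 in WT. All of these lay under the limits of 16.5 and 16.6, so no fold was given.

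Spp1 encodes osteopontin, an acidic integrin and CD44 ligand that macrophages and bone cells secrete. Its probe, A_51_P358765 on chromosome 5 from 104869788 to 104869847, was printed as 10 spots. In CKO the 8 unmarked spots gave 6.48 ± 1.25 (SD over spots), range 5.08 to 8.32. In WT the 10 spots gave 3.80 ± 0.52 (SD over spots), range 3.32 to 4.73, all of them surrogate values. The scanner software's error for a spot was larger, 3.53 in CKO and 3.78 in WT. The unmarked spots of the arrays did not overlap. With 0 spots well above background on either array there is no measured fold, and Spp1 was not detectable at this limit.

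Relatives of the members in the same families were mostly close to even or dim. Of the other CCN genes (Nov, Wisp1, Wisp2 and Wisp3) 0 of 4 were well above background on either array. Among 6 other thrombospondin and tenascin genes only Thbs3 was measured (log2 difference 0.04), and Tnxb was seen in WT only, at least 2.33-fold lower in CKO. In the SPARC family 5 of 8 genes were measured. Sparcl1, an anti-adhesive glycoprotein of vessels and glia, was 2.30-fold higher and its other probe gave 1.24. Spock2 was 2.46-fold lower with its brightest probe, but its 3 probes ranged from -1.30 to -0.21. Sparc itself, a collagen-binding protein of the lens capsule, was 1.48-fold lower, and Fstl1 1.55-fold lower. Of the bone acidic proteins and the enzymes of the vitamin K cycle 5 of 8 genes on the array were measured and 0 differed by 2-fold. These include Ggcx, which carboxylates matrix Gla protein (0.18), and Vkorc1, which recycles the vitamin (-0.40), beside Mepe (0.43) and Bglap1 (0.39).

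Other fibulins were split between genes measured on both arrays and genes seen in CKO only. Fbln5, which organises elastic fibres, was at least 4.84-fold higher and Efemp1 at least 3.75-fold higher. Hmcn1 (0.66), Fbln2 (0.20) and Efemp2 (-0.70) were measured and differed by less than 2-fold. Among 12 periostin relatives and other adhesive matrix genes 9 were measured, of which 3 passed 2-fold upward and 1 downward. Of all measured probes 3.85% and 3.20% did so. Tgfbi, the fasciclin-domain relative of periostin, was 7.56-fold higher, Ecm1 7.11-fold and Nid2, a basement membrane nidogen, 2.53-fold. Fndc1 was 2.36-fold lower with its 1 measured probe. Vitronectin (Vtn) was seen in CKO only, at least 1.10-fold higher. The median over the 13 measured probes of that list was 0.16.

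Receptors for these proteins were mostly measured. Of 22 integrin, syndecan and other receptor genes 19 were measured. Of their 38 measured probes 2 were at least 2-fold higher and 0 lower, with a median of 0.18. Over all measured probes the shares were 3.85% and 3.20%, so the upward count was near that of the whole array. Itga4, the alpha chain of a fibronectin and osteopontin receptor, was 2.27-fold higher, although another measured probe gave 0.76. Itga9, a chain of a tenascin-C and osteopontin receptor, was 2.05-fold higher and its other probe gave 0.48. Sdc4 (0.92, with 0.30 for its other probe) and Itga11 (0.78) were under 2-fold. Itgam was seen in WT only, by at least 1.30-fold.

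Among 17 genes that TGF-beta or YAP is known to induce or that carry the YAP signal, 14 were measured. Of their 23 measured probes 5 were at least 2-fold higher and 0 lower, against 3.85% and 3.20% of all measured probes. The median was 0.20. Besides Tgfbi, which is in this list too, Ltbp2 was 6.49-fold higher, and Wwtr1, the gene of TAZ, was 2.11-fold higher with both probes (1.08 and 1.44). Ptpn14 (0.81) was under 2-fold. Ankrd1 was not well above background on either array.

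Focal adhesion and actin genes had a median of 0.17 over 35 measured probes. Of these probes 3 were at least 2-fold higher and 2 lower, against 3.85% and 3.20% of all measured probes. The 3 were picked out after their values were seen: Acta2, smooth muscle actin (1.46 and 1.21, with -0.04 for its other measured probe), and Tpm1, a tropomyosin (1.58, with 0.45 and -0.20 for the others), so the probes of each gene disagreed. Lims1, an adaptor of integrin-linked kinase, was 3.55-fold lower with both probes lower (-1.83 and -1.06), and the kinase gene Ilk was 1.38-fold lower. Vcl (0.76) and Myl9 (0.49) were under 2-fold. Of 13 genes for assembly and crosslinking of matrix 7 were measured and 0 differed by 2-fold. Tgm2, a crosslinking transglutaminase, and Fbn2, a fibrillin, were seen in CKO only, at least 8.77-fold and 6.53-fold higher. The Tgm2 value rests on 1 probe, and its other probes, A_51_P182794 and A_51_P182796, were well above background on neither array. The measured ones with the largest differences were Bmp1 (-0.71), Loxl1 (-0.51), Ltbp1 (0.48) and Loxl2 (0.44).

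**Figure D4:**
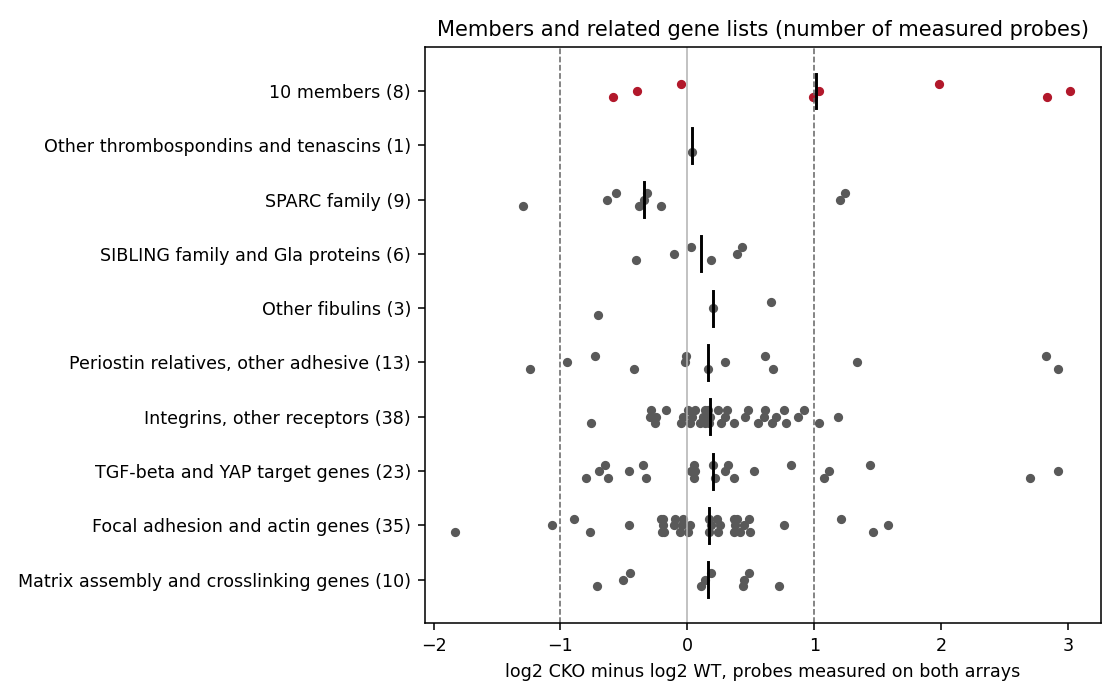
Log2 CKO minus log2 WT of each probe measured on both arrays, for the 10 members (red) and the related gene lists (grey), with the number of probes in brackets, a black bar at each median and dashed lines at 2-fold. The median of the members is 1.01 and those of the lists lie between -0.34 and 0.20; the members were chosen with earlier results of these data known.

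Some markers of cells that lie around the lens were at least 2-fold higher in CKO too, and others of the same lists were not. Over the whole array 3.85% of measured probes were at least 2-fold higher, and 4.11% of all probes were seen in CKO only. Those under 2-fold or seen in WT only, and those that carry a sum, are named here after their values were seen. Summed over the 12 genes of an ocular mesenchyme and fibroblast list, the scaled level was 48.6 in CKO and 4.76 in WT, in multiples of each array's 75th percentile. Of these 12 genes 2 were at least 2-fold higher (Col3a1, 29.1-fold, and Col1a2, 7.23-fold), 5 were seen in CKO only, and Kera was not well above background on either array. The values of Col3a1 and Col1a2 rest on 1 probe each, and their other probes were well above background on neither array. Dcn alone made 29.3 of the CKO sum, with 1 probe, and its other probe was well above background on neither array. Pdgfra (-0.05), which is in the lens epithelium list too, and Foxc1 (0.03) were near even, and Twist1 and Dpt were seen in WT only. Of 14 macrophage genes 6 were at least 2-fold higher and 6 were seen in CKO only, with sums of 32.1 and 2.97, and Ctss (43.2-fold) and Trem2 (24.01-fold) had the largest differences. Cd14 was 1.30-fold higher, and Itgam was seen in WT only, at least 1.30-fold lower in CKO. Endothelial genes summed to 39.5 in CKO and 17.0 in WT, with 8 of 11 at least 2-fold higher, among them Vwf (4.51-fold) and Tie1 (3.92-fold). Pericyte and smooth muscle genes summed to 32.1 and 28.3, with 3 of 10 at least 2-fold higher (Cspg4 2.92-fold and Kcnj8 2.68-fold among them) and Cnn1 and Des not well above background. Acta2, with its brightest probe, made 18.7 and 19.3 of these sums. Pdgfrb (-0.24), Notch3 (-0.30) and that probe of Acta2 (-0.04) were slightly lower in CKO. Of the 11 measured probes of the list 6 were at least 2-fold higher and 0 lower, with a median of 1.21. Other probes of Acta2 (1.46 and 1.21) were among the higher ones. Genes of the ciliary body, iris and pigment cells summed to 7.03 and 5.34, with 3 of 9 at least 2-fold higher, Dct (10.9-fold) and Zic1 (5.12-fold) among them, and Tyr and Otx1 not well above background. Mitf was 1.83-fold lower in CKO, and Wfdc1 was even (0.01). In WT, Trem2 (0.094), Col3a1 (0.101) and Dct (0.105) were dimmer than Cyr61 (0.128), in multiples of the 75th percentile. The size of their folds is thus uncertain.

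In the other marker lists 0 measured genes were at least 2-fold higher. Lens fibre genes summed to 7606 in CKO and 8516 in WT, with 1 of 12 at least 2-fold lower (Lgsn, 4.54-fold) and Hspb1 1.71-fold higher. Lens epithelium genes summed to 105.2 and 179.8, but Sfrp1, 1.80-fold lower, made 91.1 and 164.5 of these sums. The median difference over the list was 0.00, and Foxe3 was 1.51-fold higher. For surface epithelium the sums were 0.441 and 1.23, with Krt1 9.16-fold lower and Krt5, Krt12 and Trp63 not well above background. Retina genes summed to 0.612 and 0.387, with Pou4f1 at -0.01 and 5 of 7 not well above background, Crx and Nrl among them. The part of these cells in the differences of Mgp, Postn, Cyr61, Fn1 and Ctgf was not tested.

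**Figure D5:**
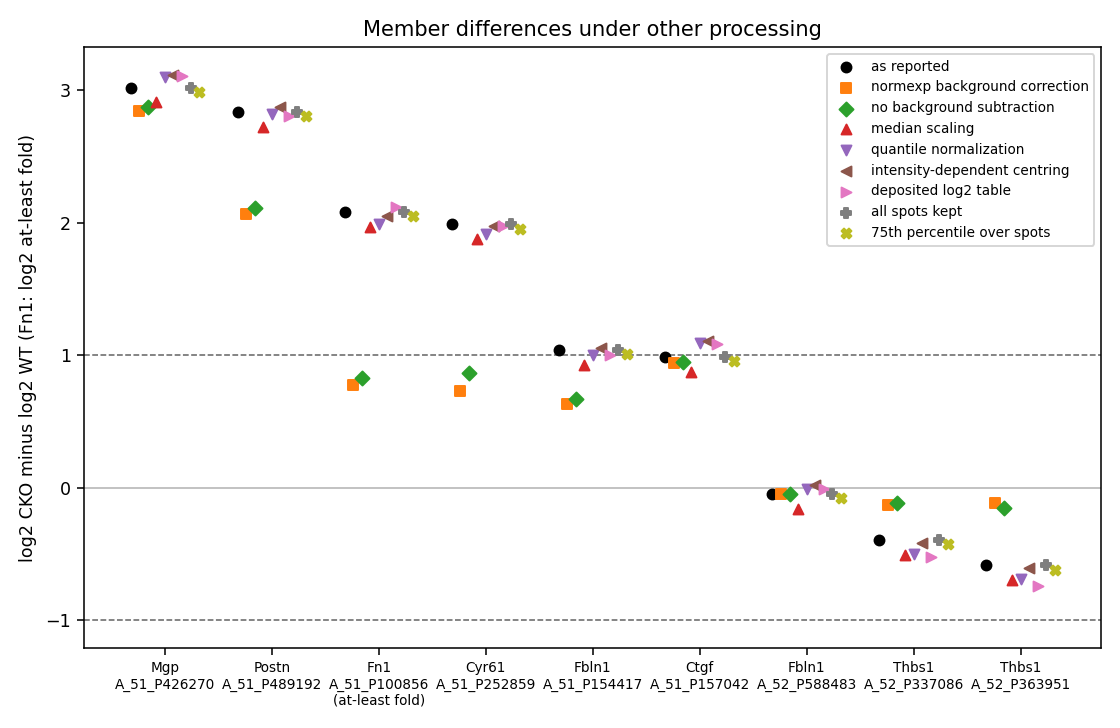
Log2 CKO minus log2 WT of each measured member probe (for Fn1, the log2 at-least fold) as reported and under 8 other ways of processing the signal; dashed lines mark 2-fold. Mgp and Postn stay above the upper line throughout, Cyr61 and Fn1 drop below it with normexp and with no background subtraction, Ctgf and Fbln1 A_51_P154417 lie on either side of it, and the Thbs1 probes stay below 0.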

How the data were processed

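RNA of 1 CKO and 1 WT lens sample was hybridised to a 1-colour array each. Both were Agilent design 014868, read with Feature Extraction 10.7.3.1 per the file headers (the submitters' processing notes name 10.7), with probe positions in mm9. Deposited scanner output holds intensity per spot, corrected for background and spatial trend within the array. The authors also deposited a log2 table whose columns both have a median of 4.87 and correlate with the log2 scanner signal at r = 0.9996 and 0.9998 across probes. Its scaling is not stated in the labels, its direction is that of the scanner files (r = 0.987 between the differences of measured probes), and it served as an alternative.

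Control spots and spots marked as outliers were left out, log2 signals were averaged per probe, and each array was scaled to the 75th percentile of its non-control probes (196 in CKO, 199 in WT). Well above background means that over 50% of a probe's spots were so marked, which held for 55.1% of probes in CKO and 54.2% in WT, and 0 spots were saturated. A probe well above background on 1 array only got an at-least fold, against the higher of its own signal and the dimmest well-measured signal of the other array. Differences were counted at 2-fold, and the number of arrays limits the precision. A gene of a list took its brightest measured probe. Of each of 10 related lists the 4 genes with the largest difference and the 2 with the largest at-least fold are named, and of each of 9 marker lists 2 genes, apart from results that are not reported here. The members and lists were chosen with earlier results of these data known. The alternatives are named in the closing section. The scaling and the 2-fold rule were run on simulated data with planted 4-fold changes and the same noise at every level. Calls close to 2-fold, or with the larger noise of dim levels, were thus not tested. No simulated probe was well above background on 1 array only, so the at-least fold was not tested. Promoters are from RefSeq (GRCm38.p6) and were used for sequence only. Normexp (offset 50) came from limma 3.58.1 (R 4.3.3), and the rest from Python 3.11.15, numpy 2.4.6, pandas 2.3.3 and statsmodels 0.14.6.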

Additional observations from a re-analysis of the deposited data

How the results depend on the processing

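No paired analysis was possible because each genotype has 1 array, and for the same reason no replicate could be left out. Of 9 member values, each under 8 other settings, 61 of 72 stayed within the spread of repeated spots (SD 0.26, log2), and 11 moved further, all of them with normexp or with no background subtraction. The count of member probes at least 2-fold higher was 4 and became 2 with normexp, 2 with no background subtraction, 8 with no filter on detection, 1 with only the brighter probes and 2 at a 4-fold threshold. The count of lower ones was 0 and became 1 with no filter and 1 at a 1.5-fold threshold. The member seen in CKO only, Fn1, no longer passed 2-fold with normexp (0) or with no background subtraction (0). The median member difference of 1.01 was 0.68 with normexp and 1.49 with the brightest probe of each gene. Over the related lists together 14 probes were higher and 4 lower. These counts were 8 and 2 with normexp, 9 and 2 with no background subtraction, 36 and 7 with no filter, 28 and 16 at 1.5-fold, and 3 and 0 at 4-fold, and the higher count was 24 with probes seen on at least 1 array and 6 with only the brighter probes. The bound for Msx2 (4.47, log2) was 2.39 with normexp and 2.54 with no background subtraction. Scaling to the 75th percentile over spots was chosen after seeing the data and moved none of these counts by over 1.5 times, nor did quantile normalization, intensity-dependent centring, median scaling, the deposited table or keeping marked spots.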
